A study of Homo sapiens with 3 samples.

Results

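The culture of NCI-H1299 transfected with ghR-34a was compared with the mock culture of the same line, on 1 array each, over every gene that the platform annotation names. These were 19775 genes on 2 of the 3 arrays of the series, and 11917 of them passed a filter on signal and were kept. NCI-H1299 was derived from a non-small cell lung cancer and lacks functional p53. The groups were mock cells, cells given ghR-34a at 25 nM and, for values set beside these, cells given miR-34a at 25 nM, all harvested after 48 hours, with 250 ng of total RNA labelled for each array. Per the labels, both RNAs were introduced with the lipid reagent Lipofectamin RNAiMAX, and the labels do not say what mock cells were given. The labels describe ghR-34a by that name only. The study's design text asks which messenger RNAs targeted by miR-34a are lowered through decay of the transcript. Each condition has 1 sample of 1 cell line, and none received an unrelated RNA, so an effect of the sequence and an effect of any transfected RNA cannot be told apart. With 1 array a side there is no spread between replicates, no test and no error for a gene, so genes are described by size and by how far the separate probe sets of a gene run the same way. Probe sets of a gene share 1 array and are not replicates. In RNA of a whole culture, fewer cells of a kind or cycle stage and less RNA per cell cannot be told apart.

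A microRNA is held by an Argonaute protein and pairs through its seed, bases 2 to 8 counted from the 5′ end, with matching sites in messenger RNAs, which lowers their translation and often hastens their decay. The miR-34 family is known as a p53-activated group of microRNAs whose reported targets include growth factor receptors, cyclin-dependent kinases and transcription factors of the cell cycle. The seed is shown because it is the part that pairs with targets. In the lines that follow the capitals mark the seed, and letters and positions are those of RefSeq on GRCh38.p14. The first of these, hsa-miR-34a-5p, lies at chr1:9151735-9151756, the second at chr5:55170586-55170607 and the third at chr5:55170706-55170727, all on the minus strand.
hsa-miR-34a-5p: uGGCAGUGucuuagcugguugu
hsa-miR-449a: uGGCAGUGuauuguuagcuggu
hsa-miR-449b-5p: aGGCAGUGuauuguuagcuggc
These 3 share the letters of bases 2 to 8. In hsa-miR-34b-5p, at chr11:111512950-111512972 on the plus strand, the related letters start 1 base later, so the seed differs. The other strand of the miR-34a hairpin, hsa-miR-34a-3p, at chr1:9151693-9151714 on the minus strand, has another seed.
hsa-miR-34b-5p: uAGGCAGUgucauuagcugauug
hsa-miR-34a-3p: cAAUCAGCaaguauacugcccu
The sequence of ghR-34a is not given in the sources used here, so whether it carries the seed of hsa-miR-34a-5p was not examined. The arrays did not measure the small RNAs.

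The arrays agreed in their overall scale, as both had been deposited at the same 2% trimmed mean. A shift shared by all genes could therefore not be seen. Median probe set signals were 70.6 in mock and 69.2 with ghR-34a. Across 42 spike-in control probe sets the SD of the log2 difference, ghR-34a minus mock, was 0.16, which covers only the steps after these controls were added. For 18S ribosomal RNA, 3 probe sets had log2 differences of -0.31 to -0.25. The line's markers were present: VIM, the intermediate filament of mesenchymal cells, had a signal of 34003 in mock and 31979 with ghR-34a, and KRT18, a keratin of simple epithelia, 17498 and 20459. The epithelial adhesion genes EPCAM (21.2 and 18.1) and CDH1 (15.4 and 21.1) were under the filter. Of the markers of other cell types, 4 of 13 measured leukocyte genes, 5 of 17 fibroblast and endothelial genes and 3 of 14 lung epithelial and neuroendocrine genes were kept. Leukocyte PTPRC was at 28.8 and 24.2, and FOXJ1, a master regulator of multiciliated cells, at 36.9 and 10.8, both under the filter.

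Over all kept genes the ghR-34a array was centred on mock, which follows in part from the common scaling of the deposited values. Differences are given as log2(signal + 32) with ghR-34a minus log2(signal + 32) in mock, and folds are on that scale, which understates the difference of genes of low signal. Of 11917 kept genes, 5747 (48.2%) were below mock and 6170 (51.8%) above, with a median log2 difference of 0.0096. The central 90% of genes lay between -0.53 and 0.50. At least 2-fold lower were 68 genes (0.571%), and at least 2-fold higher 54 (0.453%). These counts depend on the handling of low signals, and were 123 and 100 with a pseudocount of 1 and 33 and 19 with one of 100. At 1.5-fold the counts were 484 lower (4.06%) and 380 higher (3.19%). The spread depended on signal, as the plot of all genes shows. Among 5 equal bins of genes by mean signal, the lowest, 68.6 to 201, had an SD of the log2 difference of 0.42 and held 32 of the lower and 29 of the higher genes at 2-fold. In the top bin, from 2692 upward, the SD was 0.22, with 5 lower and 2 higher. Among 5025 genes with a signal of at least 1000 on both arrays, 12 lay 2-fold or more below mock (0.239%) and 4 above it (0.0796%). The bright 2-fold genes were thus more often lower than higher, at 12 and 4, where the 2-fold counts over all kept genes were 68 and 54. Many 2-fold genes crossed the filter level. The ghR-34a signal was under it in 27 of the 68 lower genes, and the mock signal in 21 of the 54 higher ones. By gene type, 62 of the lower and 50 of the higher genes code for proteins, and 4 and 2 are long non-coding RNAs.

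**Figure D1:**
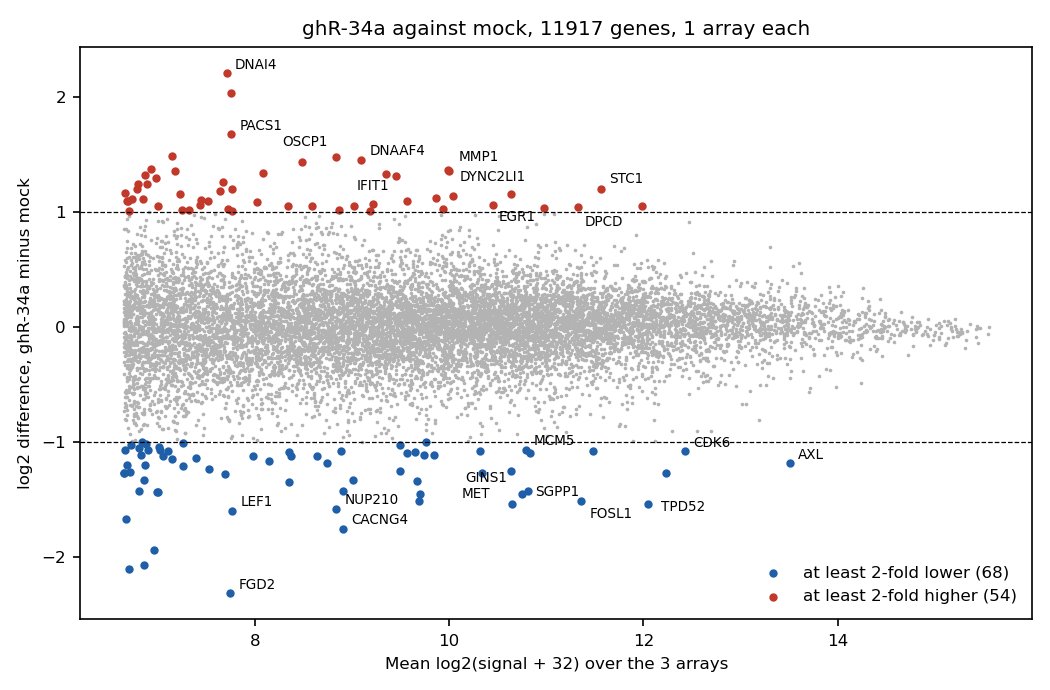
Each point is 1 of 11917 kept genes, with the mean log2(signal + 32) over the 3 arrays on the x axis and the log2 difference, ghR-34a minus mock, on the y axis, from 1 array each. The 68 genes at least 2-fold lower are blue and the 54 at least 2-fold higher are red, dashed lines mark 2-fold, and the scatter narrows toward high signal, where TPD52, FOSL1, AXL and CDK6 stand below it.

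Separate probe sets of a gene, which read different stretches of its transcripts, ran the same way more often where the difference was large. A single kept probe set represented 5891 genes, and 6026 genes had 2 or more, up to 14. Among these 6026, every kept probe set had the same sign in 3225 genes (53.5%), all lower in 1613 (26.8%) and all higher in 1612 (26.8%). For genes whose brightest probe set differed by less than 0.1 on the log2 scale, the probe sets all shared its sign in 45.8% of 1001 lower and 40.9% of 1055 higher genes. Where it differed by 1 or more, this held for 94.7% of 19 lower and 90% of 20 higher genes. The rise was not even, as the bar plot of agreement shows, since lower genes between 0.6 and 0.8 were at 70.5%, below the 74.6% of those between 0.4 and 0.6. The other probe sets gave smaller differences: at 2-fold and beyond, the median of the brightest probe sets was -1.19 and that of the others -0.75 among lower genes, and 1.08 and 0.66 among higher genes. The brightest probe set was the one whose size defined these bins, so its larger median follows in part from that choice. Of the 68 genes at least 2-fold lower, 49 had 1 kept probe set, as had 34 of the 54 higher. The 3 genes at 2-fold whose probe sets went both ways were FGD2, an activator of the GTPase CDC42 (from -2.32 to 0.15), the helicase gene DDX60L (from -0.42 to 1.20) and IFT56, an intraflagellar transport gene (from -0.043 to 1.07). The ghR-34a signal was under the filter in the probe set of FGD2 at -2.32 (56.1) and in that of DDX60L at -0.42 (60.4). Every kept probe set was at least 1.5-fold lower in 48 genes (0.797% of those with 2 or more) and at least 1.5-fold higher in 30 (0.498%).

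**Figure D2:**
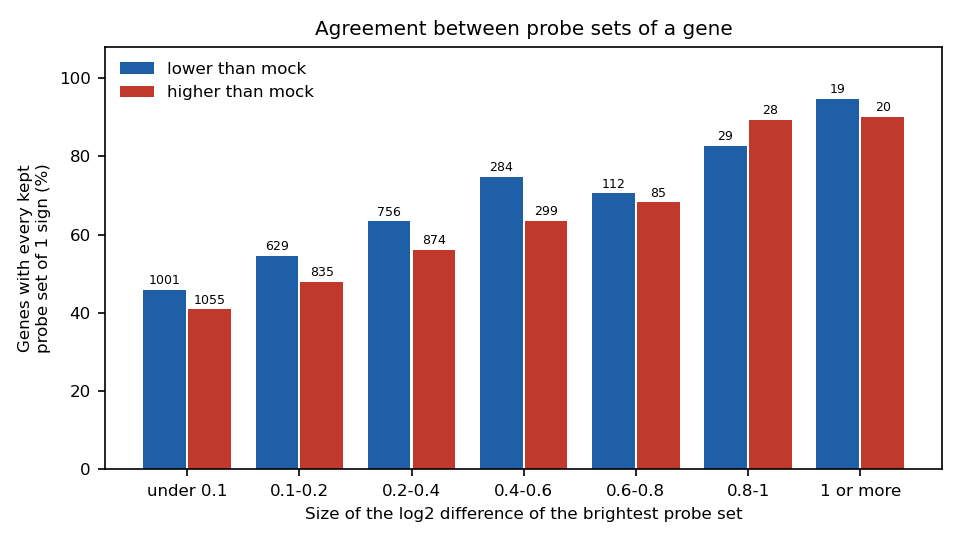
The bars give the percentage of genes with 2 or more kept probe sets in which every probe set had the sign of the brightest one, by the size of the brightest one's log2 difference, ghR-34a minus mock, with the number of genes above each bar. Agreement was 45.8% and 40.9% in the smallest bin and 94.7% and 90% in the largest, for lower and higher genes.

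The genes lower in every probe set were led by TPD52, a vesicle trafficking protein raised in several tumours. Its signal was 8834 in mock and 3008 with ghR-34a, 2.92-fold lower, and its 5 probe sets lay between -1.57 and -1.31. SGPP1, which dephosphorylates sphingosine-1-phosphate, was at 3295 and 1179.6, and its 2 probe sets at -1.46 and -1.29. AXL, a receptor tyrosine kinase that binds GAS6, was at 20614 and 9045, with probe sets at -1.36 and -1.19. For all 3 the ghR-34a signal was under the mock signal in every probe set by more than 2-fold. MET, the hepatocyte growth factor receptor, was at 3269 and 1100.5, with 3 probe sets from -1.54 to -1.06. The helicase subunit MCM5 was at 2810.5 and 1324 (probe sets -1.17 and -1.07). PRPS2, an enzyme that makes the sugar phosphate donor for nucleotide synthesis, was at 3799.8 and 1779 (probe sets -1.44 and -1.08). MET, MCM5 and PRPS2 also stayed past 2-fold in every probe set. GINS3, another part of the replicative helicase, was at 883 and 426, with probe sets at -1.45 and -0.999. ANP32A, a nuclear histone-binding protein, was at 7957 and 3273, and its 3 probe sets lay between -1.27 and -0.99. The rest of the 15 named by this rule were thymidine kinase TK1, the endoplasmic reticulum genes ERLIN1 and SURF4, the phosphatase CDC25A, PRELID2, ZBED3 and the aldo-keto reductase AKR1E2, with weakest probe sets from -0.96 in TK1 to -0.77 in AKR1E2.

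Genes higher in every probe set included several that build or serve cilia. PIERCE1, a protein of ciliary microtubules, had a signal of 539.9 in mock and 1227 with ghR-34a, and its 2 probe sets were at 1.14 and 1.22. DPCD, named for its deletion in a model of primary ciliary dyskinesia, was at 1503 and 3124 (probe sets 1.04 and 1.08). STC1, a secreted glycoprotein hormone, was at 1785 and 4139, with 3 probe sets from 1.03 to 1.27. These 3 were the only genes with 2 or more kept probe sets that were past 2-fold higher in each, and 6 genes were past 2-fold lower in each, as the plot of probe sets shows. YOD1, a deubiquitinase, was at 572 and 1278 (probe sets 0.90 and 1.12). DYNC2LI1, a light chain of the dynein that carries cargo in cilia, had 4 probe sets from 0.87 to 1.88. WDR19, of the retrograde transport complex, had probe sets at 0.90 and 1.30, and the BBSome regulator LZTFL1 at 0.84 and 1.28. The others were CFAP69, ZNF91, a repressor of retroelements, SPATA17, SPATA7, the arginine sensor CASTOR1, the golgin BLZF1, the immediate early transcription factor EGR1 and the interferon-induced SAMD9. Their weakest probe sets lay between 0.85 in CFAP69 and 0.71 in SAMD9. In 5 of these 15 genes, CASTOR1, DYNC2LI1, SAMD9, SPATA17 and WDR19, a probe set has a mock signal under the filter and was kept through arrays where it is high, so its sign is no separate support. For CASTOR1 this is both kept probe sets, with 65.7 and 42.1 in mock, so it has none with a mock signal above the filter. For WDR19 this is the probe set at 1.30, with 41.4 in mock, and for DYNC2LI1 those with 40.1 and 47.9. Among the 15 lower genes it holds for PRELID2, in 1 probe set with ghR-34a. Of all genes at least 1.5-fold one way in every probe set, it holds for 13 of the 30 higher and 6 of the 48 lower.

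**Figure D3:**
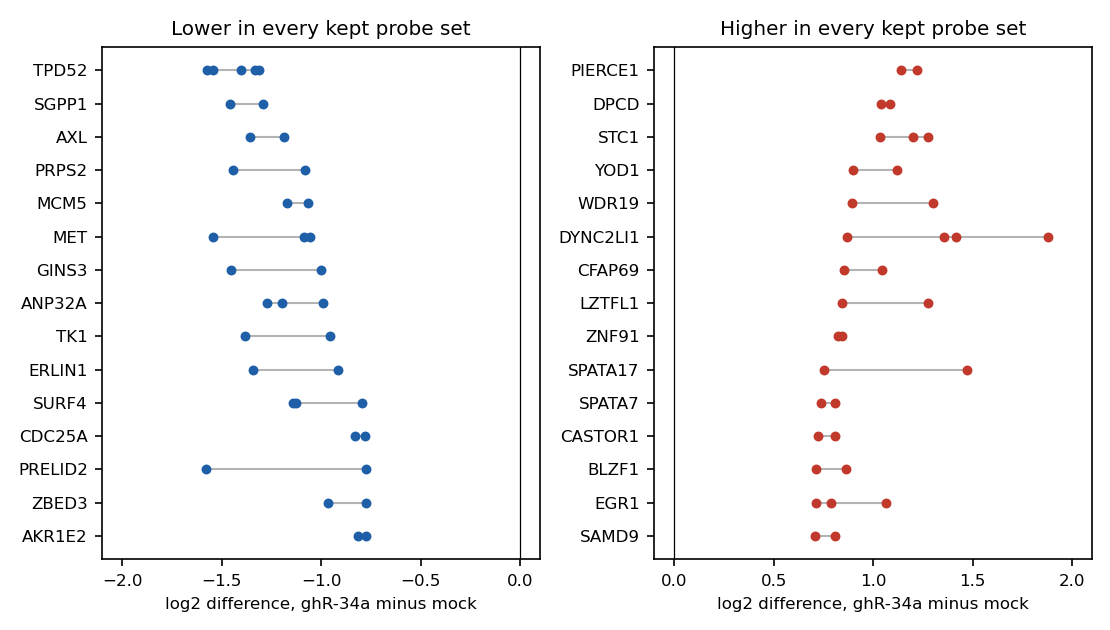
Each point is the log2 difference, ghR-34a minus mock, of 1 kept probe set, and each row a gene, for the 15 genes with the largest weakest difference below mock (left) and above mock (right). TPD52 had 5 probe sets between -1.57 and -1.31, and DYNC2LI1 had 4 between 0.87 and 1.88.

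Reported miR-34a targets were mostly lower with ghR-34a. Of 68 kept members of that list, 56 were below mock, against 48.2% of all kept genes. Differences of 2-fold or more were found in 11 lower members, against 0.571% of all kept genes, and in 0 higher ones. The list had a median of -0.44 (quartiles -0.84 and -0.12), against 0.0096 over all kept genes. Of 44 members with 2 or more kept probe sets, 29 were lower in every one, 1 was higher in every one and 14 were mixed. Among all kept genes with 2 or more, 26.8% were lower in every one. Set beside these, the list's median with miR-34a was -0.48, with 54 members below the same mock array that both comparisons share.

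Among targets that encode receptors, MET and AXL, given above, were lower by the most, and the others varied. FGFR1, a fibroblast growth factor receptor, was at 989 in mock and 783 with ghR-34a, and its 7 probe sets ran from -0.43 to 0.026. NOTCH2, a receptor of cell contact signals, was at 2534 and 1636, lower in all 4 probe sets (-0.69 to -0.45). NOTCH1 was at 138 and 105, close to the filter level, and the Notch ligand JAG1 at 1781 and 1818. TGFBR1, the type I receptor of TGF-beta, was at 2884 and 2151, and TGFBR2 at 1795 and 2004. The activin receptor ACVR2B was above mock by 0.50, though its probe sets reached down to -0.28. Surface proteins differed among themselves too: ULBP2, a ligand of the natural killer cell receptor NKG2D, was at 403 and 203 (probe sets -0.89 and -0.77), while CD44, the hyaluronan receptor, was at 9292 and 9074 and CD47, a signal against phagocytosis, at 7362 and 8083. The 12 probe sets of CD44 ran from -0.19 to 0.39 and the 7 of CD47 from -0.41 to 0.98.

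Of targets in intracellular signalling, RRAS, a Ras-related GTPase, was at 1663 in mock and 560.4 with ghR-34a, 2.86-fold lower in its only probe set. MAP2K1, the kinase that activates ERK, was at 3478 and 1884 (-0.87). PEA15, a scaffold that holds ERK in the cytoplasm, was at 3760.1 and 2181, with probe sets at -0.78 and -0.70. In these 3 the miR-34a signals were 534, 1563 and 1665. ARHGAP1 was at 2789.9 and 1148, and its 4 probe sets ranged from -1.26 to -0.39. SRC was at 469 and 393, and MAP3K9 at 579.8 and 598. The size of the difference in ARHGAP1 thus varied with the probe set, though not its direction. In its probe sets at -0.47 and -0.39 the ghR-34a signals were 55.1 and 66.1, under the filter.

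Among targets that encode transcription factors and chromatin proteins, FOSL1, an AP-1 subunit, was at 6509 in mock, 2253 with ghR-34a and 1183 with miR-34a. LEF1, a factor of the Wnt pathway, was at 382, 105 and 152 in the same order. E2F5, a repressor of the E2F family, was at 2389 and 969.6, with probe sets at -1.27 and -0.68. TGIF2, a corepressor of SMAD signalling, was at 690.4 and 287 (probe sets -1.18 and -0.72). MEN1, the scaffold protein menin, stood apart between the transfectants: its single probe set was at 1011 in mock, 379 with ghR-34a and 1241 with miR-34a. HDAC1, a histone deacetylase, was at 7074 and 3759 (-0.91), the pluripotency factor KLF4 at 1229 and 868 (-0.49) and YY1 at 12953 and 11287, lower in all 6 probe sets. MYC was at 9512 and 9027, and ZEB1, a repressor of epithelial genes, at 1661 and 2022, so neither was lower by more than the spike-in SD of 0.16. The deacetylase SIRT1 was at 1618 and 1269 (-0.34). SIRT7 had the highest difference of the list, at 0.55, from 705 to 1051.

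Most targets that drive the cell cycle were lower. CDK6 was at 8761 in mock and 4115 with ghR-34a, lower in all 6 probe sets, from -1.13 to -0.44. The related kinase CDK4 was at 9385 and 5004 (-0.90). GMNN, which blocks a second firing of replication origins, was at 10093 and 5381 (-0.90). Both CDK4 and GMNN rest on a single probe set. MYB, a factor of proliferating precursor cells, was at 194 and 89.1 (-0.90). CDC25A, a phosphatase that activates cyclin-dependent kinases, was at 894 and 489 (probe sets -0.83 and -0.78). Cyclin genes were lower by less: CCNE2 was at 2192 and 1299.7 (probe sets -0.82 and -0.74) and CCND1 at 2648 and 1815 (-0.54 and -0.48). BIRC5, the inhibitor of apoptosis survivin, was at 5079 and 3496, lower in all 4 probe sets. STMN1, which destabilises microtubules, was at 3612 and 2493, with probe sets from -0.53 to 0.61. MDM4, which restrains p53, was mixed, with 6 probe sets from -0.73 to 0.85. Those at 0.85 and 0.44 have mock signals of 50.8 and 63.6, under the filter, so their sign is no separate support. Its other probe sets were lower, with the brightest at -0.44. BCL2, an inhibitor of apoptosis, was at 94.1 in mock and 54.6 with ghR-34a, the latter under the filter.

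The targets in metabolism and autophagy named here were lower by less than 2-fold. ACSL4, which attaches coenzyme A to long-chain fatty acids, was at 739 in mock and 433 with ghR-34a (-0.73). FUT8, the enzyme of core fucosylation, was at 1607 and 969 (probe sets -0.71 and -0.54). The autophagy genes ATG4B and ATG9A were at -0.67 and -0.60, ATG4B lower in all 3 probe sets. ATG4B has a probe set whose ghR-34a signal is under the filter, so its sign is no separate support. LDHA, the last enzyme of glycolysis to lactate, was at 21824 and 18133, and NAMPT, which recycles nicotinamide, at 2269 and 1688. LDHA and NAMPT differed from mock by -0.27 and -0.42.

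**Figure D4:**
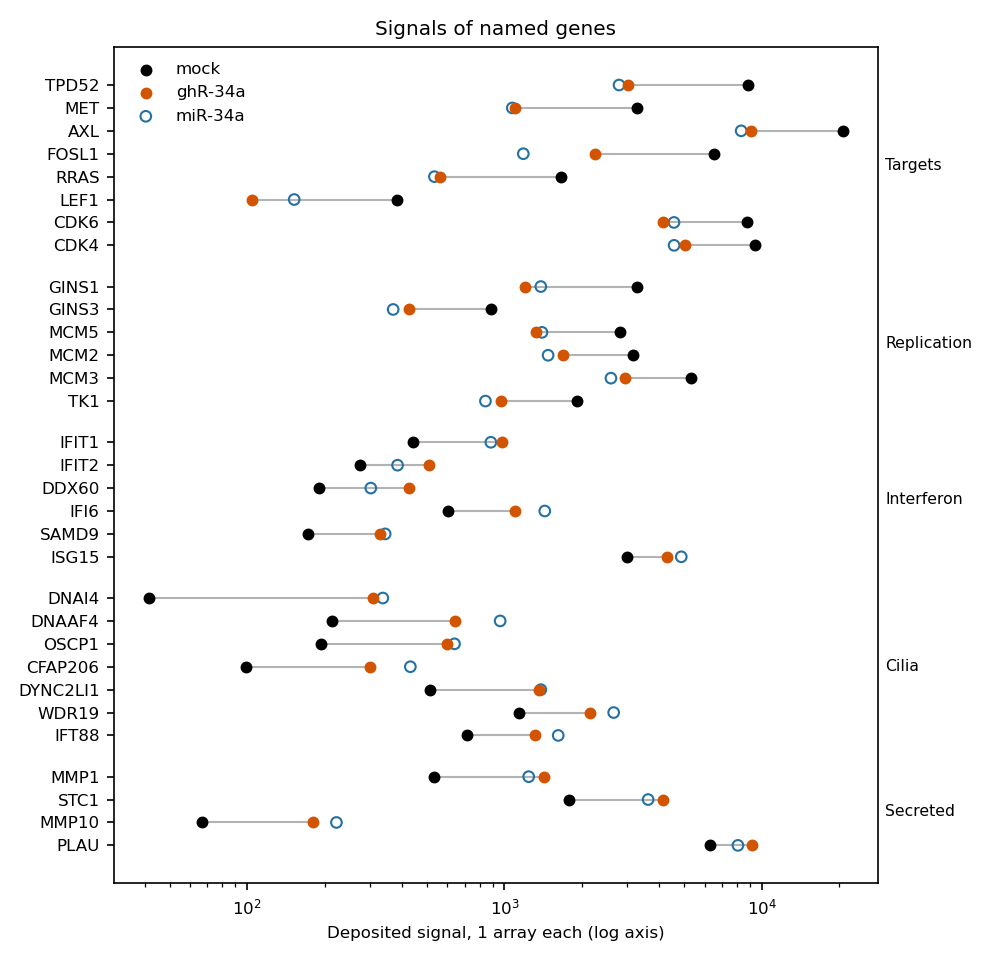
Deposited signals of named genes on a log axis, with mock in black, ghR-34a in orange and miR-34a as open blue circles, from 1 array each. Targets and replication genes lie to the left of mock with ghR-34a, for example MET at 1100.5 against 3269, and interferon, cilia and secreted genes to the right, for example STC1 at 4139 against 1785.

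The G1/S list, of genes that start and carry out DNA replication, was lower almost throughout. Of 59 kept members, 54 were below mock, against 48.2% of all kept genes. Past 2-fold lower were 3, against 0.571%. Its median was -0.42 (quartiles -0.57 and -0.23). Of 30 members with 2 or more kept probe sets, 26 were lower in every one, against 26.8% of all such genes, and 4 were mixed. The replicative helicase is built of the MCM ring, CDC45 and the GINS complex, and its parts were not equally lower. All MCM2 to MCM7 genes were below mock, at -0.88 for MCM2, -0.84 for MCM3, -0.32 for MCM4, -1.07 for MCM5, -0.29 for MCM6 and -0.56 for MCM7. In the GINS complex, GINS1 was at 3279 in mock and 1202 with ghR-34a (-1.42), whereas GINS2 was at 3442 and 2895 (-0.25) and GINS4 at -0.22, with its other probe set at 0.11. CDC45 was at 1580.1 and 1402, -0.17. The loading factor CDC6 was at -0.59. CDT1, which loads the helicase with it, was at -0.031 in its brightest probe set and -1.01 in the other, and MCM10 at -0.61 with all 3 probe sets lower.

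At the replication fork, the sliding clamp PCNA was at 10383 in mock and 7259 with ghR-34a (-0.51). DNA ligase LIG1 was at 678 and 362 (-0.85), and the flap endonuclease FEN1 at 3517 and 2469, with probe sets at -0.57 and -0.51. The clamp loader genes RFC2 to RFC5 lay between -0.34 in RFC3 and -0.20 in RFC4. Polymerase genes differed by similar sizes: POLA1 was at -0.34, POLA2 at -0.35, POLD1 at -0.48, POLE at -0.24 and POLE2 at -0.30. Among E2F factor genes, E2F2 was at -0.55 with probe sets at -0.70 and -0.55, E2F3 at -0.44 and -0.95, and E2F8 at -0.42. The probe sets of E2F7 and E2F1 did not give 1 size: E2F7 was at 0.13 in the brightest and -0.41 in the other, and E2F1 at -0.095, from signals of 243 and 225, and -1.54. Not all members were lower. CCNE1, cyclin E1, was above mock, at 961 and 1509 (0.63), while CCNE2 was below. DBF4, the activator of the CDC7 kinase, was at 0.19.

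Enzymes that supply nucleotides were lower by less. Of 23 kept genes of deoxynucleotide and purine synthesis, 20 were below mock, against 48.2% of all kept genes. Past 2-fold lower were 0, against 0.571%. Their median was -0.24. Thymidylate enzymes were at the front: TK1 at 1905 in mock and 967 with ghR-34a (-0.96), DTYMK at 5769 and 3753 (-0.62) and TYMS, thymidylate synthase, at 21221 and 14760.4 (-0.52). DTYMK and TYMS were lower in all 4 and all 3 probe sets. Ribonucleotide reductase genes RRM1 and RRM2 were at -0.39 and -0.38, and in purine synthesis PAICS was at -0.48 and PFAS at -0.37, with ATIC at 0.0091 and PPAT at 0.011. Genes of DNA repair and checkpoints had 21 of 27 below mock and a median of -0.17, with its lower members including the Fanconi genes FANCE (-0.66) and FANCG (-0.62) and the nuclease EXO1 (-0.56). The checkpoint kinase ATR was at 0.46, and CHEK1 at 0.036 with probe sets down to -0.25.

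Genes of G2/M and mitosis were lower by small amounts. Of 67 kept members 56 were below mock, against 48.2% of all kept genes, and 0 by 2-fold, against 0.571%. The median was -0.32 (quartiles -0.46 and -0.075). Of 29 members with 2 or more kept probe sets, 20 were lower in every one and 0 higher in every one. The share was 26.8% each way among all kept genes with 2 or more. The kinases of mitosis were at -0.61 for PLK1, -0.51 for AURKB, -0.40 for AURKA and -0.32 for CDK1. Cyclins were at -0.44 for CCNB1, -0.30 for CCNB2 and -0.44 for CCNA2. Condensin genes differed among themselves, with NCAPH at 771 in mock and 426 with ghR-34a (-0.81), NCAPD2 at -0.57 and NCAPG2 at 0.14. FOXM1, a transcription factor of this stage, was at 3618 and 2196 (-0.71). The proliferation marker MKI67 was near mock, at 1914 and 1956, though its other probe sets reached -0.96. KIF18A, a kinesin that limits chromosome movement, was above mock, at 787 and 1236 (0.63). The inhibitors that hold the cycle back were not shifted as a list: of 9 kept CDK inhibitor and pocket protein genes 5 were below mock, the median was -0.063, and p21, encoded by CDKN1A, was at 1071 and 985. RBL2, a pocket protein that represses cell cycle genes at rest, had the highest value of this list, 1516 in mock and 2206 with ghR-34a.

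Promoter sequences were read for these lists because E2F factors and the complexes that bind the cell cycle homology region, abbreviated CHR, act there. Promoters covered 250 bases before to 50 after a gene's start, and 9760 of 11917 kept genes were matched in the RefSeq table. The E2F letters searched were TTTCCCGC, TTTCGCGC, TTTGCCGC and TTTGGCGC on both strands. In the G1/S list 24 of 49 promoters (49%) held them, against 5.48% of those of all kept genes and 3.33% of 27305 promoters. The CHR letters TTTGAA, on both strands, were in 40 of 55 promoters (72.7%) of the mitosis list, against 9.7% and 15.4%. These sequences are shown because their genes carried some of the lower values just given. Capitals mark the matched letters, each sequence runs 5′ to 3′ along the gene's strand, and it begins up to 40 bases before the first match and ends up to 40 after the last, cut at the gene's start or at the end of the match.
GINS1: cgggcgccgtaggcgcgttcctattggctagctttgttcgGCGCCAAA
LIG1: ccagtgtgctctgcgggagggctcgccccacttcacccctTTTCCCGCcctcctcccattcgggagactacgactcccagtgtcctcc
GINS3: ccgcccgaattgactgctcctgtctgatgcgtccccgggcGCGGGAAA
MCM2: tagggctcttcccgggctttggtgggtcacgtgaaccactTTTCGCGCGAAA
CDCA8: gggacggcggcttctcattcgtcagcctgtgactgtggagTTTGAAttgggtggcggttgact
PLK1: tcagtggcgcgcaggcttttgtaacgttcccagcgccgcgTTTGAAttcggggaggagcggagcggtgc
They lie at chr20:25407638-25407685 (plus strand) for GINS1, chr19:48170411-48170498 (minus strand) for LIG1, chr16:58392426-58392473 (plus strand) for GINS3, chr3:127598373-127598424 (plus strand) for MCM2, chr1:37692453-37692515 (plus strand) for CDCA8 and chr16:23678820-23678888 (plus strand) for PLK1, on GRCh38.p14. In MCM2, whose signal was 3145 in mock and 1689.7 with ghR-34a, 2 matches overlap, at 3 and 7 bases after the start. The match of LIG1 starts 114 bases before the gene's start, that of CDCA8 (2167 and 1423) 23 and that of PLK1 (456 and 287) 29 bases before it. KIF18A, above mock, also held the CHR letters, 10 bases before its start. Within the G1/S list, the letters did not mark the lower genes: the median was -0.42 for the 24 genes with the E2F letters and -0.43 for the 25 without. In the mitosis list it was -0.30 for 40 genes with the CHR letters and -0.35 for 15 without. Over all kept genes with a promoter, the median was -0.041 for 535 with the E2F letters and 0.015 for 9225 without. Among 473 kept genes with the E2F letters that were in no list, it was -0.0027. A match describes letters only, not a site in use.

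Interferon-stimulated genes, which cells make as an antiviral programme when type I interferon or foreign RNA is sensed, were higher. Of 39 kept members 34 were above mock, against 51.8% of all kept genes, with 4 of them past 2-fold, against 0.453%. Their median was 0.24 (quartiles 0.068 and 0.57). Of 14 with 2 or more kept probe sets, 7 were higher in every one, against 26.8% of all such genes, and 7 were mixed. IFIT1, which binds RNA lacking the host's cap marks, was at 440.2 in mock, 976 with ghR-34a and 885 with miR-34a. DDX60, a helicase gene, was at 190.1, 427 and 302. GBP1, a large GTPase, was at 34.3, 131 and 157, from a mock signal under the filter. DDX60L was at 103, 277 and 218, but its other probe set was at -0.42, with a ghR-34a signal of 60.4, under the filter. Of all 55 measured members, without the filter, 40 were above mock, against 51.0% of all 19775 genes, and the median was 0.23. Brighter members were higher by less than 2-fold. IFI6, which protects mitochondria and blocks viral replication sites, was at 601 and 1097 (0.83), and the ubiquitin-like ISG15 at 3000.0 and 4296 (0.51). IFIT2 and IFIT3 were at 0.82 and 0.62, with other probe sets at 0.071 and -0.16. SAMD9 was higher in both of its probe sets, from 173 to 327 in the brighter and from a mock signal under the filter in the other. Genes of antigen display were nearer to mock, with TAP1 at 0.32, PSMB9 at 0.18, PSMB8 at 0.0061 and B2M at 0.0032. The lowest members were DTX3L (-0.29) and IFI35 (-0.22).

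The sensors and signalling genes of this pathway lay nearer to mock. Of 24 kept members 18 were above it, against 51.8% of all kept genes. Past 2-fold higher were 0, against 0.453%, and past 2-fold lower 0, against 0.571%. Their median was 0.09. The RNA sensor IFIH1 was at 574 in mock and 857 with ghR-34a, with probe sets at 0.55 and 0.56. The second has a mock signal of 51.8, under the filter, so its sign is no separate support. RIGI, another RNA sensor, was at 593 and 670.2, higher in all 3 probe sets (0.17 to 0.85). The kinase EIF2AK2, which halts translation when it meets double-stranded RNA, was at 2224 and 2628, higher in all 3. IRF9, which joins the interferon-activated STAT proteins, was at 405 in mock, 705 with ghR-34a and 1138 with miR-34a. STING1, the adaptor of the DNA sensing arm, was below mock in both probe sets, at 321 and 183 in the brighter, and its partner enzyme CGAS was at -0.24. NF-kappaB and inflammatory genes had 7 members below and 8 above mock with a median of 0.012, and the cytokine LIF was the highest, at 321 and 616. Whether ghR-34a itself or transfected RNA in general goes with these values was not tested, as no array had an unrelated RNA.

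The interferon-stimulated response element, ISRE, is the site that the complex of IRF9 and its partners binds. It was searched, on both strands, as a pair of GAAA runs separated by any 2 bases, which were in 23 of 33 promoters of the interferon-stimulated list (69.7%), against 2.55% of those of all kept genes and 3.65% of all promoters. These sequences are shown because their genes had some of the largest differences of the list, with capitals on the matched letters.
IFIT1: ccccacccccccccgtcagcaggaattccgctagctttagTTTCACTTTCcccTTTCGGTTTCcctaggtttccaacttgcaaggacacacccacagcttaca
DDX60: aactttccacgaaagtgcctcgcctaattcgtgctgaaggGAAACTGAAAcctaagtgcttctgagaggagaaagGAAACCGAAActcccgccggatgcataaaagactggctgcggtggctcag
GBP1: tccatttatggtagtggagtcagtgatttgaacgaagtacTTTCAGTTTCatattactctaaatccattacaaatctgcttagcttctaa
They lie at chr10:89392467-89392569 (plus strand) for IFIT1, chr4:168318756-168318880 (minus strand) for DDX60 and chr1:89065286-89065375 (minus strand) for GBP1, on GRCh38.p14. IFIT1 and DDX60 each hold 2 matches, starting 116 and 103 bases before the start in IFIT1 and 88 and 53 bases before it in DDX60, and GBP1 holds 1. The median log2 difference was 0.24 for the 23 list members with the letters and 0.27 for the 10 without. The 4 members past 2-fold held the letters, as did 69.7% of the list's promoters, so this count does not set them apart. Of these 4, GBP1 has a mock signal under the filter, and DDX60L has another probe set at -0.42, whose ghR-34a signal is under the filter. Over all kept genes the median was 0.060 for 249 genes with the letters and 0.011 for 9511 without, and 0.047 for 207 with the letters that were in no list.

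Genes of motile cilia were mostly higher, with FOXJ1 under the filter on both arrays. A motile cilium is a ring of microtubule doublets bent by dynein arms, which are assembled in the cytoplasm by dedicated factors. Of 45 kept members of 72 measured, 33 were above mock, against 51.8% of all kept genes, with 8 past 2-fold, against 0.453%. Their median was 0.33 (quartiles -0.00059 and 0.64). Of 19 members with 2 or more kept probe sets, 12 were higher in every one and 0 lower in every one. The share was 26.8% each way among all kept genes with 2 or more. The filter reads the mean of the 3 arrays, and 3 of the 8, DNAI4, DNAI7 and CFAP53, have mock signals under it and were kept through the transfected arrays, where they are high. Over all 72 measured members without the filter, 47 were above mock, against 51.0% of all 19775 genes, and the median was 0.19. Dynein arm genes included DNAI4, at 41.5 in mock, 307 with ghR-34a and 337 with miR-34a, whose 4 probe sets ran from 0.65 to 2.21. All 4 have mock signals under the filter, from 37.2 to 55.3. Their shared sign is thus no separate support, though DNAI4 counts among the 12 members higher in every probe set. The related DNAI7 was at 23.2, 105 and 181. In both the mock signal gives little hold on the size. DNAAF4, an assembly factor of the arms, was at 213, 640.0 and 962. OSCP1 was at 194, 598 and 639. Cilia and flagella associated genes CFAP206, CFAP69 and CFAP53 were at 1.34, 1.05 and 1.36, and ROPN1L, of the radial spoke, at 1.25. Brighter members were higher by less: DNAAF5 was at 7034 and 9001 (0.35), RSPH3 at 600.0 and 1038 (0.76, with probe sets down to -0.087) and CFAP298 at 1972 and 2674 (0.43). RFX3, a transcription factor of ciliary genes, was at 253 and 420.2, higher in all 3 probe sets (0.31 to 0.67), while RFX2 was at -0.13. Against the list, the dynein heavy chain gene DNAH6 was at 312 and 144 (-0.96).

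Genes of intraflagellar transport and the BBSome, which primary cilia use as well, were higher by similar amounts at brighter signals. Of 55 kept members 48 were above mock, against 51.8% of all kept genes, with 2 past 2-fold higher, against 0.453%, and 0 past 2-fold lower, against 0.571%. These 2 were DYNC2LI1 and IFT56. In IFT56 only the brightest probe set was past 2-fold, at 1.07, and the others were at -0.043 and 0.075. Their median was 0.32 (quartiles 0.12 and 0.60). Of 34 with 2 or more kept probe sets, 19 were higher in every one, 1 was lower in every one and 14 were mixed. Among all kept genes with 2 or more, 26.8% were higher in every one. The dynein of retrograde transport was higher in several subunits: DYNC2LI1 at 513 in mock and 1366 with ghR-34a, its heavy chain DYNC2H1 at 768 and 1299.8 (0.74, and 0.12 in the other probe set) and DYNC2I1 at 0.70, with DYNC2I2 at -0.14. In the anterograde complex IFT88 was at 714 and 1308 (0.84), IFT81 at 717 and 1433 (0.97) and IFT74 at 489 and 790.4 (0.66). WDR19 was at 1141 and 2149, but its partners IFT122 and WDR35 of the retrograde complex were at -0.11 and -0.27, with their other probe sets at 0.061 and 0.38. The kinesin subunits KIF3A and KIF3B, which pull the other way, were at 0.23 and 0.048. Subunits of the BBSome ranged from -0.10 in BBS5 to 0.46 in BBS7, and BBS10 and BBS12, chaperones that assemble it, were at 0.54 and 0.57. CEP290, a gatekeeper at the base of cilia, was at 545 in mock, 1090.2 with ghR-34a and 615 with miR-34a, in its only kept probe set. Beside the median of 0.32 with ghR-34a stood 0.51 with miR-34a for this list, and 0.33 and 0.45 for the motile list, over the shared mock array. The X-box, the site of RFX factors, was searched by its letters on both strands and was in 2 of 35 promoters of the motile list (5.71%) and 2 of 49 of the transport list (4.08%), against 0.973% of those of all kept genes and 0.795% of all promoters. In the motile list these were SPAG16 (0.47) and DNAH1, which was below mock (-0.20). In the transport list they were ARL6 (0.30) and B9D2 (0.28). Over all kept genes the median was 0.12 for 95 with these letters and 0.012 for 9665 without.

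Secreted proteases, their inhibitors and matricellular proteins had 17 of 27 kept members above mock, against 51.8% of all kept genes, 3 of them past 2-fold, against 0.453%. Their median was 0.15. MMP1, interstitial collagenase, was at 534 in mock, 1427 with ghR-34a and 1242 with miR-34a. STC1 was at 1785, 4139 and 3613, and MMP10, stromelysin 2, at 66.8, 181 and 222, the mock value under the filter. In all 3 both transfectants were above mock. The plasminogen activator PLAU was at 6287 and 9149.8, with probe sets at 0.54 and 0.57, but its receptor PLAUR was at 10697 and 10771 and its inhibitor SERPINE2 at 0.34. Thrombospondin THBS1 was at 1872 in mock, 2636 with ghR-34a and 1899 with miR-34a, with all 3 probe sets higher with ghR-34a. The matrix crosslinking enzyme LOX was at 0.50 with all 3 higher, the dimmest from a mock signal of 67.4, under the filter. Lower members were IGFBP3, which binds insulin-like growth factors, at 207 and 111, and CCN1, a matricellular protein, at 5808 and 3928. Each was lower in both probe sets. The second probe set of IGFBP3 has a ghR-34a signal of 56.0, under the filter, so its sign is no separate support. SPP1, osteopontin, a secreted phosphoprotein named for its high signal, was at 3862 and 7309, with probe sets at 0.68 and 0.91.

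Adhesion and mesenchymal genes showed no common shift. Of 26 kept integrin and adhesion genes 17 were below mock, against 48.2% of all kept genes, with a median of -0.048. Vinculin, VCL, was at 11912 and 8356 (-0.51), and the integrin chains ITGA2 and ITGB8 at 0.60 and 0.67. ITGA6, part of the laminin receptor, was at 5123 in mock, 5602 with ghR-34a and 2449 with miR-34a, and ITGA4 at 1508, 1454 and 585. These integrins were thus near mock with ghR-34a and lower with miR-34a. Of 21 genes of epithelial-mesenchymal transition 13 were below mock, with a median of -0.096 and PRRX2 at -1.67 from 142 to 22.5, the latter under the filter. KRT8, a keratin, was at 0.34, N-cadherin CDH2 at -0.26 and VIM at -0.088.

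Of the TGF-beta list, 18 of 30 members were above mock, against 51.8% of all kept genes, with a median of 0.072. TGIF2 and the receptor TGFBR1 were lower, as given above, and SMURF2, a ubiquitin ligase that removes receptors of the pathway, was at 6302 and 9409, higher in all 4 probe sets. SMAD4 was lower in all 3 probe sets (-0.53 to -0.22). The ID genes, which answer bone morphogenetic proteins, were at -0.19 for ID1, -0.077 for ID2, -0.30 for ID3 and -0.36 for ID4, whose other probe set was at 0.17. In the Notch list 10 of 24 were below mock, against 48.2% of all kept genes (median 0.033). The target gene HES1 was at 619 and 449.8, APH1A of gamma-secretase at -0.54, and PSEN2, another secretase part, at 143 and 339.8. The second probe set of PSEN2 was at 0.017. In the Wnt list 18 of 31 were below mock (median -0.035). Beside LEF1, the receptor LGR4 was at -0.80 and the ligase ZNRF3 at -0.71, while the relay protein DVL1 was at 956 and 1890.1 and beta-catenin, CTNNB1, at 7914 and 8008, with probe sets from -0.82 to 0.23.

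Receptor tyrosine kinases varied from member to member. Of 18 kept genes 11 were below mock, against 48.2% of all kept genes, 2 of them, MET and AXL, past 2-fold, against 0.571%. The family's median was -0.14. EGFR was at 1006 in mock and 886 with ghR-34a, EPHA2 at 2654 and 2826, and IGF1R at 672 and 463. The probe sets of EGFR ran from -0.29 to 0.19 and those of IGF1R from -0.51 to 0.21. MERTK and TYRO3, the relatives of AXL, were at 0.027 and 0.033 with ghR-34a and -0.56 and -0.60 with miR-34a. In the RAS and MAPK list 15 of 29 were below mock, with a median of -0.005. The kinase MAPK3 was at -0.59, ARAF at -0.63 and 0.013 in its probe sets, and RRAS2 at -0.50 with all 3 probe sets lower. Genes that ERK activity induces differed, with FOSL1 lower, as given above, and others higher. EGR1 was at 846 and 1803, higher in all 3 probe sets, the phosphatase gene DUSP6 at 3037 and 4466, higher in all 3, and SPRY2 at 0.34. JUN was at 0.21, with all 4 probe sets higher.

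Genes known as p53 targets were split, in a line without functional p53. Of 24 kept members 13 were above mock, against 51.8% of all kept genes, and the median was 0.10. TP53INP1 was at 579 in mock and 947 with ghR-34a, the death receptor TNFRSF10B at 2239 and 3401 in its brightest probe set, with the others at -0.047 and -0.035, and ZMAT3 at 871 and 1347, higher in all 5 probe sets. On the other side, DDB2, a sensor of ultraviolet damage, was at 561 and 306, and CCNG1, cyclin G1, at 10299, 6447 and, with miR-34a, 9200.5. In the BCL2 family 10 of 16 were above mock (median 0.077), with the death-promoting BIK at 219.8 in mock, 410.2 with ghR-34a and 768 with miR-34a. MCL1, which protects cells, was higher in all 6 probe sets, from 0.092 to 0.75.

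Of the remaining lists some lay below the median of all kept genes and some close to it, as the plot of lists shows. Nuclear pore genes had 22 of 29 below mock, against 48.2% of all kept genes, and a median of -0.18. Of 18 with 2 or more kept probe sets, 13 were lower in every one, against 26.8% of all such genes. NUP210, a membrane-spanning pore protein, was at 879.9 in mock and 273 with ghR-34a, with 5 probe sets from -1.58 to -0.47. High mobility group and lamin genes had 16 of 19 below mock (median -0.23), led by HMGB3, at 4119 and 2560.1, HMGN4, at 12768 and 7988, and HMGB2, at 16555 and 11143. Sterol and fatty acid synthesis had 18 of 28 below mock (median -0.17). The desaturase SCD was at 14832 and 11372, lower in all 4 probe sets, and SREBF2, the controlling factor, lower in all 3. Genes of fatty acid activation and breakdown had 14 of 23 above mock, against 51.8% of all kept genes (median 0.072). CPT2 was at 0.57 and ACADM at 0.38. In that list ECHS1 was at 6027 in mock, 5668 with ghR-34a and 1433 with miR-34a, so it was near mock with ghR-34a and lower with miR-34a.

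Lysosome and autophagy genes had 27 of 38 above mock, against 51.8% of all kept genes (median 0.098). The lysosomal lipase LIPA was at 2429.6 and 3538 and the autophagosome protein gene MAP1LC3B at 5213 and 6668. The MYC network had 22 of 33 below mock, against 48.2% of all kept genes (median -0.054). Hypoxia and glycolysis genes had 19 of 28 above mock (median 0.06), and the glucose transporter SLC2A3 was at 1229.8 and 2451, higher in all 3 probe sets. Stress genes had 16 of 28 below mock (median -0.064), with PHGDH, of serine synthesis, at 1317 and 739 and heme oxygenase HMOX1 at 573 and 889. The machinery that makes and uses microRNAs was at mock as a list, with 13 of 28 below and a median of 0.0027. Within it AGO2, the Argonaute that can cut its target, was at 1743 and 2472 (0.50), DCP2, the decapping enzyme, at 4193 and 6539.6 (0.64, with probe sets down to -0.098), and its activator DCP1A at 1085 and 609 (-0.80). Host genes of microRNAs had 10 of 15 below mock (median -0.32), and the related phosphatase genes CTDSP1, CTDSP2 and CTDSPL were at -0.86, -0.83 and -0.53. Immune checkpoint genes and ligands of NKG2D had 6 of 11 above mock (median 0.13), with HLA-B at 0.31 and HLA-C at 0.28. The medians of 3 lists of housekeeping genes were small. Ribosomal proteins had a median of -0.034 and a range of -0.16 to 0.04, oxidative phosphorylation -0.031 and -0.27 to 0.26, and reference genes -0.084 and -0.35 to 0.065, with GUSB lowest, GAPDH at -0.11 and ACTB at 0.065.

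At high signal, the lower genes that are in none of the lists included GNPDA1, an enzyme of amino sugar breakdown, at 3164 in mock and 1459.6 with ghR-34a in its only probe set. The higher ones included HIPK3, a kinase, at 2627 and 5481, with probe sets from 0.16 to 1.05, and TPRG1L, at 1143 and 2293. AKAP9, a scaffold of the centrosome and Golgi, was at 1178 and 2180.2, and OSTM1, a lysosomal membrane protein, at 2682 and 4691, higher in all 4 probe sets. The sizes in HIPK3 and OSTM1 depended on the probe set, with 0.16 and 0.18 at the low end.

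Genes with a single kept probe set and both signals above the filter have no second reading on the array. Among them, CACNG4, a subunit that regulates channels and glutamate receptors, was at 719 in mock, 191 with ghR-34a and 628 with miR-34a. CA2, carbonic anhydrase, was at 799, 278 and 402. FAXDC2, a lipid hydroxylase relative, was at 449, 157 and 355. CACNG4 and FAXDC2 were thus lower with ghR-34a by more than with miR-34a, with no test of that difference. RTL8A, a gene derived from a retrotransposon, was at 952, 359 and 326, and LINGO3, a membrane protein, at 272, 92.9 and 202. On the higher side, PACS1, a trafficking protein, was at 92.4, 365 and 174, and ANKRD46 at 978, 2212 and 1740.1. BBOF1, a protein of ciliary basal bodies, was at 304, 810.4 and 957, and PIH1D2, related to assembly factors of dynein arms, at 79.5, 221 and 249.7. The genes lower in every probe set also differed between transfectants in places: PRPS2 was at 3333 with miR-34a against 1779 with ghR-34a, PRELID2 at 287 against 133 and AKR1E2 at 171 against 85.9. In PRPS2, PRELID2 and AKR1E2 the miR-34a values were -0.19, 0.18 and -0.031 from mock, where the ghR-34a values were -1.08, -0.78 and -0.81.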

How the data were processed

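Total RNA of 3 NCI-H1299 cultures was hybridised to 1-colour arrays, 1 per condition. The authors deposited linear probe set intensity values, made with Affymetrix Expression Console per the submitters' processing notes; its version, background correction and settings are not given in the sources used here. On both arrays compared the 2% trimmed mean of the deposited intensity was 500.07, so a common scaling had been applied. Values were not scaled again, and log2(signal + 32) was taken. The 62 control probe sets were set aside; of 54675 probe sets, 41097 had 1 gene symbol (41043 matched RefSeq by Entrez identifier), 1801 with several symbols were left out, and 11721 had no symbol here. Each gene was read from its brightest probe set, by mean log2 value over the 3 arrays, and was kept where that mean reached the overall median, which corresponds to a signal of 68.6. No detection calls were used, so which low signals lie above background is not known.

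With 1 array per condition no test was possible; a rule of size of 2-fold was used. The labels do not describe how cultures relate, and the number of arrays limits the precision. Genes named were the 15 each way with 2 or more kept probe sets of 1 sign, ranked by the weakest; the 10 largest differences each way with signals of at least 1000 on both arrays; the 10 each way with 1 kept probe set and both signals at or above the filter; in each of 35 gene lists the members past 2-fold and up to 8 others; and a fixed set of known targets and reference genes. Further list members, chosen after their values were seen, complete a complex or family. The members, lists and rules were chosen with earlier results of these data known. Another 4 lists held cell type markers. Alternatives were other pseudocounts, filters and size rules, median centring, quantile normalization, averaged probe sets and leaving out probe sets of the _s_at and _x_at kinds, which can match several transcripts. Python 3.11.15, numpy 2.4.6, pandas 2.3.3 and matplotlib 3.10.9 were used.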

Additional observations from a re-analysis of the deposited data

How the results depend on the processing

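No paired analysis was possible because each condition has 1 array, and no replicate could be left out. The counts at 2-fold, 68 lower and 54 higher, depended on the handling of low signals: 123 and 100 with a pseudocount of 1, 33 and 19 with a pseudocount of 100, 228 and 215 without a filter, 28 and 19 with a filter at the 75th percentile, and 44 and 29 with averaged probe sets, of which 35 and 27 are among the 68 and 54. By construction a larger pseudocount shrinks differences of low signals and a filter sets how many genes are counted. The size rule at 1.5-fold gave 484 and 380, and at 3-fold 7 and 3. Genes with every kept probe set at least 1.5-fold one way, 78 in all, were 38 with a pseudocount of 100, 42 with the stricter filter and 42 without _s_at and _x_at probe sets, where fewer genes have 2 probe sets. Median centring (72 and 52) and quantile normalization (64 and 55) gave counts within 1.5 times of these. The medians of reported targets, G1/S, interferon-stimulated, motile cilia and transport genes kept their sign and moved by less than the spike-in SD of 0.16 under all 8 alternatives run for them, though without the filter that of motile cilia genes was 0.19 against 0.33. Of 328 named genes, 120 moved by more than that SD with averaged probe sets, and of 54 named at 2-fold 23 then fell short of it. DDX60L was reversed, at -0.42 without _s_at and _x_at probe sets, which leaves its other probe set. The ghR-34a signal of that probe set is 60.4, under the filter. Low signal limits part of the 2-fold genes: 27 of the lower and 21 of the higher have 1 signal under the filter.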

Other observations

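Histone genes, chosen for mention after their values were seen, differed by class. All 9 kept H2B genes were above mock with ghR-34a, with log2 differences of 0.18 to 1.24 and a median of 0.51, where 51.8% of all kept genes were above mock. H2BC3, which has the value of 1.24, and H2BC11 have mock signals of 27.3 and 58, under the filter, and were kept through the arrays where they are high. H2BC12, the brightest, was at 10708 in mock, 13567 with ghR-34a and 14470.0 with miR-34a, H2BC5 at 1066, 2211 and 3292, and H2BC21 at 267, 487 and 709. H2B genes are nearly identical in their coding stretches, and the probe sets of H2BC5, H2BC6, H2BC9 and H2BC12L are of the _x_at kind, so their signals may be shared and the 9 are not independent readings. The H2A, H1 and H4 classes were split: of 7 H2A genes 4 were below mock, of 4 H1 genes 2 and of 4 H4 genes 2. Both kept H3 genes were below, H3C8 at 231 and 105. H3C8 has 1 probe set, of the _x_at kind, and was at 321 with miR-34a, above mock. H3C7, at 95.3 and 53.4, has a ghR-34a signal under the filter. The 3 replacement variants of H2A, which are made outside S phase as well, were all below mock: H2AX at 7893 and 5848, H2AZ1 at 25246 and 23127, and H2AZ2 at 10670.3 and 7555, the last lower in all 4 probe sets. Transcripts with and without a poly(A) tail were not told apart in these arrays.

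Near-neighbours within families went opposite ways in several places, by their brightest probe sets. In the E cyclins CCNE2 was at -0.74 and CCNE1 at 0.63. In the decapping pair DCP1A was at -0.80 and DCP2 at 0.64. In the sirtuins SIRT1 was at -0.34 and SIRT7 at 0.55. Among nuclear pore genes NUP210 was at -1.58, and NUP58 at 0.73 in its brightest probe set. The other probe sets of NUP58 were below mock like NUP210, at -0.33, -0.062 and -0.038. These are single readings and no difference between members was tested.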
